A study of Homo sapiens with 12 samples.

Results

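PML, SP100, SP110, SP140L, DAXX, ATRX, IFI16, SAMD9 and SAMD9L were followed in HEK293 cells with and without overexpression of RBMX. These 9 of the 25268 gene symbols in the deposited values were chosen by name as genes of PML nuclear bodies, with the paired genes SAMD9 and SAMD9L. The choice was made with earlier results of these data known. HEK293 cells are an established line from human embryonic kidney, and RBMX is a nuclear RNA-binding protein. The cells of the RBMX group were transiently transfected with 2 μg of the plasmid pCMV6-HIS-HA-RBMX, in which a viral promoter drives tagged RBMX, and the control cells, called wild type in the sample labels, received the mock empty vector. All cells were thus transfected, and no untransfected cells were analysed here. For each vector 3 replicates were sequenced from total RNA and 3 from polysomal RNA, the RNA that sediments with several ribosomes in a sucrose gradient. This gave 12 libraries. By the labels the total RNA was pooled from the fractions of a gradient, but they also name a pair of dishes for the extractions, and same-numbered total and polysomal libraries are taken here as one culture.

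PML nuclear bodies are spherical structures of the cell nucleus that are built on the PML protein. PML becomes modified with the small protein SUMO and recruits partners such as SP100, DAXX and ATRX, which together repress the chromatin of incoming DNA viruses. Many of the genes of this system are induced by interferons, the secreted signals of the antiviral response, through promoter elements bound by STAT and IRF transcription factors. SAMD9 and SAMD9L are cytoplasmic restriction factors of poxviruses that restrain protein synthesis and cell growth.

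In the GENCODE v29 annotation of GRCh38, 3 of the genes are neighbours on the long arm of chromosome 2. SP110 lies at chr2:230167293-230225729 on the minus strand, SP140L at chr2:230327184-230403732 and SP100 at chr2:230415942-230544090, both on the plus strand. SAMD9 (chr7:93099513-93118023) and SAMD9L (chr7:93130055-93148369) stand side by side on the minus strand of chromosome 7. PML lies on chromosome 15 from 73994673 to 74047812, IFI16 on chromosome 1 from 158999968 to 159055155, DAXX on chromosome 6 from 33318558 to 33323016 and ATRX on chromosome X from 77504878 to 77786233.

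Promoter sequences were taken from RefSeq (GRCh38.p14), from 250 bases before to 50 bases after a start. For 6 of the 9 genes, all but PML, DAXX and ATRX, such sequences were found, with 9 starts in all. They are shown because interferon-induced genes are known for the response element whose core is GAAA, any 2 bases and GAAA again, which was searched on both strands. Each line of sequence holds the best match at one start to the 8 fixed letters of this core, in capitals with the bases between, and 10 bases on either side, written along the strand on which the match reads. Of the 6 genes, all 8 letters were found in the promoter of SAMD9 alone, and 7 of the 8 in those of SAMD9L, SP110, SP140L and IFI16. A further exact match, to the gamma-activated site TTCNNNGAA, lay at one of the starts of SP110 and has its line too.
SAMD9, chr7:93118096-93118125, minus strand: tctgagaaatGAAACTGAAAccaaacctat
SAMD9L, chr7:93148414-93148443, minus strand: gttctaaagcAAAACTGAAActgtctatac
SP110, upstream start, chr2:230225716-230225745, minus strand: agaggaaaagAAAAGTGAAAttgcctaact
SP110, downstream start, chr2:230220010-230220039, plus strand: gggcttccgaGAAAAGAAAAgtgaaagttt
SP110, downstream start, gamma-activated site, chr2:230220004-230220032, minus strand: cacttttcttTTCTCGGAAgcccggcccc
SP140L, chr2:230327103-230327132, minus strand: gcccaaatggGGAAAAGAAAagtgaaagta
IFI16, chr1:159009848-159009877, plus strand: taacagaaacGAAAGCTAAAaacactggtg

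The element begins 136 bases before the start of SAMD9 and 48 bases before that of SAMD9L. The downstream start of SP110 and the start of SP140L share a run of 18 bases, GAAAAGAAAAGTGAAAGT, and the upstream start of SP110 shares a run of 17 bases with that of SP140L. The longest run common to any pair of the 9 promoters was 48 bases, between SP140L and SP100. In SP100 itself no more than 6 of the 8 letters matched at either start. Among 35116 promoters of the same length an exact core was found in 3.57%, and a core with up to 1 mismatch in 33.0%. Counted by gene, up to 1 mismatch was found in 5 of these 6 genes and in 37.7% of the 27305 genes in the table. The gamma-activated site was exact in 7.66% of the promoters. A match of letters is a description and not a measured site.

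The RNA values are FPKM, by definition fragments scaled to the length of the transcript and to the mapped fragments of the library. Levels are thus per length and can be compared between genes. The submitters' notes also name the program Cuffnorm, and the scaling it applied between libraries is not given. The number of fragments behind a library is not known from these values, and no counting interval can be given. RBMX itself checked the labels. In total RNA its FPKM was 133 ± 22.2 in control cells and 1755 ± 307 in RBMX-overexpressing cells (SD, n = 3 each), and the log2 fold change of RBMX was 3.71 (adjusted p = 0.00269 by limma). In polysomal RNA the log2 fold change of RBMX was 3.25 (adjusted p = 0.0415 by limma). The 10 HEK293 markers all had a mean FPKM of at least 1 in each group. Of 10 leukocyte markers only CD14 and CD68 reached a mean of 1, and PTPRC, the gene of the common leukocyte antigen, stayed at or below 0.0209. Small RNA genes took 40.6% to 72.9% of the FPKM sum of a library. Replicate 3 stood apart from the others for some genes with both vectors and for others with the control vector only. In control replicate 3 the HEK293 marker VIM had an FPKM of 248 in total RNA, where the other control libraries had 522 and 549. In RBMX total replicates 1 to 3 VIM had 508, 486 and 519. The median of 41 interferon-stimulated genes, as log2(FPKM + 1) above the mean of the control libraries of the fraction, was 2.16 and 2.32 in RBMX total replicates 1 and 2 and 0.80 in replicate 3. In control total replicates 1 to 3 that median was 0.18, 0.27 and -0.42.

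The genes differed widely in level in control cells. In control total RNA DAXX was highest, with a mean of 80.5 FPKM, and its libraries did not overlap with those of any other of the 9 genes. IFI16 (23.9), PML (23.7), SP110 (16.8) and SP100 (13.6) followed, and neighbours in this order overlapped. ATRX (7.61) and SAMD9 (5.96) lay below them and overlapped with each other. SP140L (0.590) and SAMD9L (0.161) were the lowest and did not overlap with each other or with SAMD9. In control polysomal RNA the order was the same apart from PML and IFI16, which changed places and overlapped there too. ATRX and SAMD9 did not overlap in control polysomal RNA.

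RBMX was compared with control in each fraction by limma, with values set as log2(FPKM + 1), over the 14676 genes whose FPKM averaged 0.5 or more in the 12 libraries, and all 9 genes were among them. SAMD9L, with about 0.2 FPKM or less in control cells, passed this filter only through the RBMX-overexpressing cells, so its p-values and its place in the counts are descriptions, and the counts are also given for the other 8 genes. On this scale the change of SP140L and SAMD9L is understated, so the ratio of mean FPKM is given as well. After Benjamini-Hochberg adjustment over all genes tested 0 of the 9 genes passed the threshold of 0.05 in either fraction. Of all genes tested 0.164% passed in total RNA, with 0.109% higher in RBMX-overexpressing cells, and 0.0477% passed in polysomal RNA, with 0.0273% higher. At an unadjusted p under 0.05 there were 6 of the 9 in total RNA, all higher (background 7.93%), and 6 in polysomal RNA, all higher (background 5.16%), or 5 of 8 in each fraction without SAMD9L. The 3 RBMX-overexpressing libraries lay above the 3 control libraries for 6 of the 9 genes in total RNA (background 11.9%) and for 7 of the 9 in polysomal RNA (background 10%), or 5 of 8 and 6 of 8 without SAMD9L. With 3 against 3 libraries the two-sided exact permutation test cannot give a p below 0.1. In total RNA the median log2 fold change of the 9 genes was 1.14 and in polysomal RNA 1.27, where that of all genes tested was 0 in both. Over the 8 genes without SAMD9L the median was 1.22 and 1.29.

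**Figure D1:**
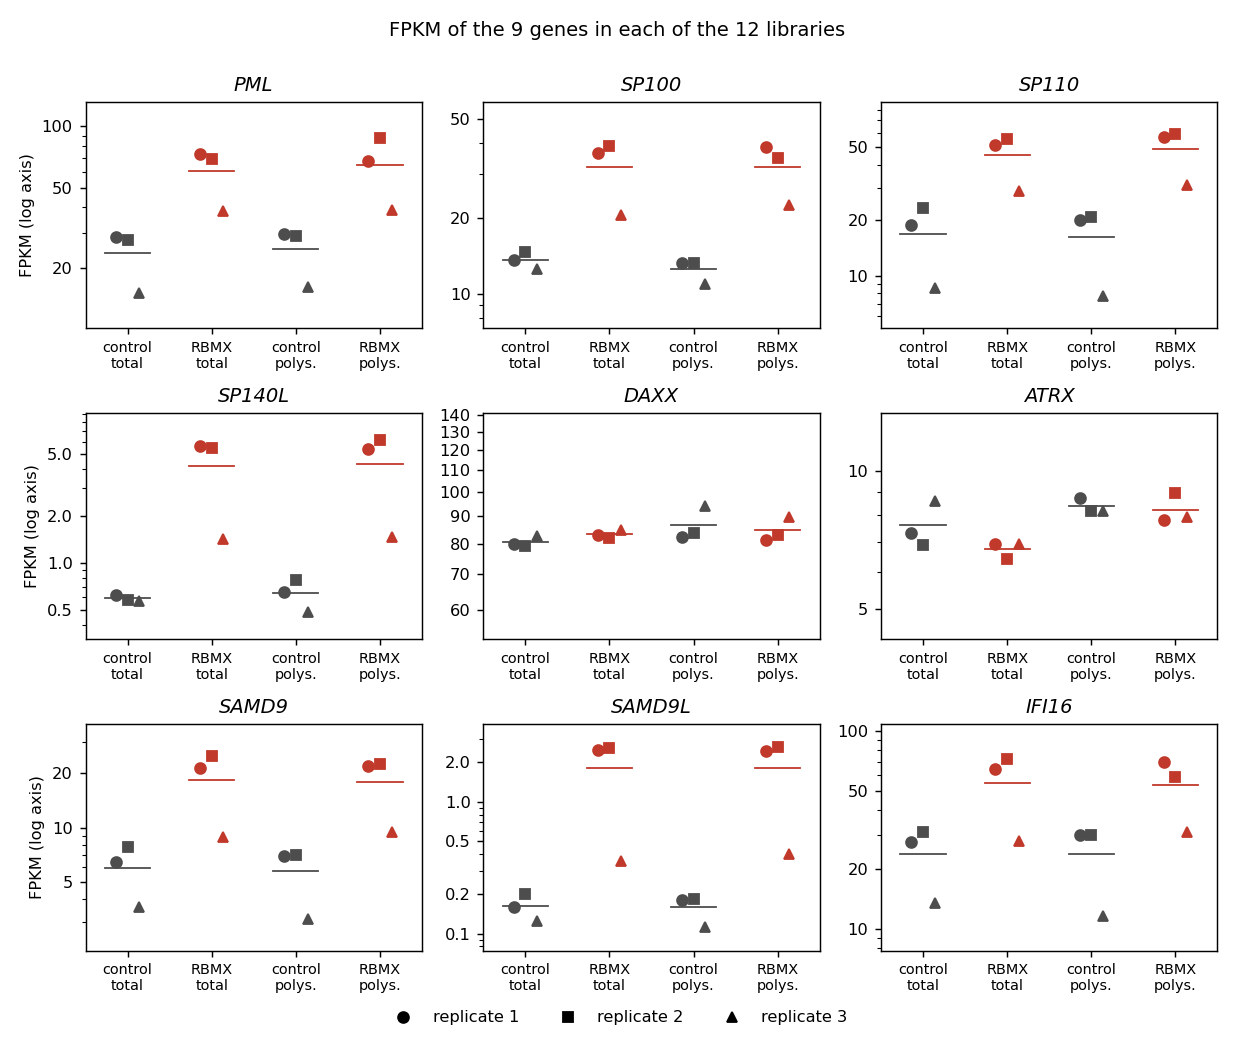
FPKM of each of the 9 genes (log axis) in the 12 libraries, by vector and fraction, with 1 point per replicate and the group mean as a line. For PML, SP100, SP110, SP140L, SAMD9, SAMD9L and IFI16 replicate 3 is the lowest point of all 4 groups, whereas DAXX and ATRX stay level.

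PML encodes the scaffold protein of the bodies. In total RNA its FPKM was 28.4, 27.5 and 15.2 in control replicates 1 to 3 and 73.6, 68.9 and 38.3 in RBMX replicates 1 to 3. In polysomal RNA it was 29.6, 28.7 and 16.2 against 67.6, 88.2 and 38.8. Every RBMX-overexpressing library lay above every control library in both fractions, and replicate 3 was the lowest of each group. The log2 fold change of PML was 1.31 in total RNA (standard error 0.35, 95% interval 0.44 to 2.17, adjusted p = 0.182 by limma) and 1.32 in polysomal RNA (standard error 0.37, adjusted p = 0.4 by limma). The mean FPKM was 2.54 times that of control in total RNA and 2.61 times in polysomal RNA. By replicate number, which the labels do not pair across vectors, the ratio of PML in total RNA was 2.52 in replicate 3. In replicates 1 and 2 it was 2.55. This ratio was lower in replicate 3 for SP100 (1.65 against 2.67), SP140L (2.48 against 9.24), SAMD9 (2.45 against 3.26) and IFI16 (2.06 against 2.35). It was also lower there for SAMD9L (2.83 against 14), and it was higher for SP110 (3.36 against 2.55).

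SP100, SP110 and SP140L belong to the speckled protein family, chromatin readers of which SP100 is a permanent component of the bodies. SP100 had 13.6, 14.7 and 12.6 FPKM in control total RNA and 36.5, 39.0 and 20.7 in RBMX total RNA. In polysomal RNA it had 13.3, 13.3 and 10.9 against 38.6, 34.9 and 22.7. The groups did not overlap in either fraction, and replicate 3 was the lowest of each. On the log2 scale the fold change of SP100 was 1.13 in total RNA (standard error 0.25, adjusted p = 0.174 by limma) and 1.27 in polysomal RNA (standard error 0.21, adjusted p = 0.4 by limma). The mean FPKM of SP100 was 2.36 and 2.57 times that of control. Of the 100-base stretches of its longest coding transcript 11.8% also occur in the pseudogene HMGB1P3, so fragments of both cannot be fully separated.

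SP110 had 18.8, 23.2 and 8.55 FPKM in control total RNA and 51.5, 55.6 and 28.7 in RBMX total RNA. In polysomal RNA SP110 had 20.0, 20.8 and 7.75 against 56.8, 58.9 and 31.3. The groups did not overlap, and replicate 3 was again the lowest of each, with 0.407 times the mean of replicates 1 and 2 in control total RNA. For SP110 the log2 fold change was 1.42 in total RNA (standard error 0.43, adjusted p = 0.196 by limma) and 1.60 in polysomal RNA (standard error 0.44, adjusted p = 0.4 by limma). The mean FPKM was 2.69 and 3.03 times that of control. Exons of SP110 overlap the neighbouring SP140 on the other strand by 170 bases and an antisense RNA by 1262 bases, and the library kit does not mark strand. SP140 itself did not exceed 0.147 FPKM in any library.

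SP140L, a less studied member of the family, was low in control cells. It had 0.624, 0.576 and 0.571 FPKM in control total RNA and 5.65, 5.44 and 1.42 in RBMX total RNA. In polysomal RNA it had 0.652, 0.772 and 0.483 against 5.40, 6.10 and 1.46. The groups were far apart, but RBMX replicate 3 had 0.255 times the mean of RBMX replicates 1 and 2 in total RNA. For SP140L the log2 fold change came to 1.56 in both fractions (standard error 0.41 and 0.42, adjusted p = 0.18 and 0.4 by limma). The mean FPKM was 7.06 times that of control in total RNA and 6.80 times in polysomal RNA. Of the 100-base stretches of the longest coding transcript of SP140L 9.12% also occur in SP140.

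IFI16 is a nuclear sensor of foreign DNA that can restrict viral transcription. It had 27.6, 30.8 and 13.5 FPKM in control total RNA and 64.6, 72.2 and 27.8 in RBMX total RNA. The groups overlapped there, because RBMX replicate 3 lay below control replicate 2. In polysomal RNA IFI16 had 29.9, 30.0 and 11.7 against 69.6, 58.7 and 31.0, and the groups were separated by a narrow margin. For IFI16 the log2 fold change came to 1.13 in total RNA (standard error 0.47, 95% interval -0.044 to 2.31, adjusted p = 0.277 by limma) and 1.16 in polysomal RNA (95% interval -0.018 to 2.33, adjusted p = 0.425 by limma). The mean FPKM was 2.29 and 2.23 times that of control.

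SAMD9 had 6.47, 7.82 and 3.60 FPKM in control total RNA and 21.5, 25.1 and 8.84 in RBMX total RNA. In polysomal RNA SAMD9 had 6.93, 7.05 and 3.10 against 22, 22.7 and 9.41. The groups did not overlap in either fraction, though RBMX replicate 3 came near the highest control library in total RNA. On the log2 scale the fold change of SAMD9 was 1.42 in total RNA (standard error 0.44, adjusted p = 0.204 by limma) and 1.48 in polysomal RNA (standard error 0.43, adjusted p = 0.4 by limma). The mean FPKM of SAMD9 was 3.10 and 3.17 times that of control.

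SAMD9L, the neighbour and paralog of SAMD9, had the lowest level of the 9 genes in control cells and the largest ratio. It had 0.158, 0.200 and 0.126 FPKM in control total RNA and 2.46, 2.55 and 0.355 in RBMX total RNA. In polysomal RNA it had 0.179, 0.183 and 0.112 against 2.41, 2.58 and 0.404. The groups did not overlap, yet RBMX replicate 3 had only 0.142 times the mean of RBMX replicates 1 and 2 in total RNA, the widest gap of any of the 9 genes. The mean FPKM of SAMD9L was 11.1 times that of control in total RNA and 11.4 times in polysomal RNA. The ratio within total RNA was 14 in replicates 1 and 2 and 2.83 in replicate 3. The log2 fold change of SAMD9L was 1.14 in total RNA (standard error 0.39, adjusted p = 0.225 by limma) and 1.16 in polysomal RNA (standard error 0.38, adjusted p = 0.403 by limma). On the scale with a pseudocount of 0.1 in place of 1 it was 2.49 and 2.56. No 100-base stretch of its longest coding transcript occurs in SAMD9.

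DAXX and ATRX work together in the bodies, where DAXX is the chaperone that deposits the histone variant H3.3 and ATRX the remodelling enzyme that it acts with. DAXX had 79.8, 79.1 and 82.6 FPKM in control total RNA and 82.9, 82.0 and 84.7 in RBMX total RNA. In polysomal RNA DAXX had 82.3, 83.9 and 94.1 against 81.3, 83.0 and 89.9. The groups overlapped in both fractions. The log2 fold change of DAXX was 0.047 in total RNA (95% interval -0.071 to 0.17, adjusted p = 0.615 by limma) and -0.032 in polysomal RNA (95% interval -0.25 to 0.18, adjusted p = 0.884 by limma). With quantile normalization the value in total RNA was -0.0385. Of the 100-base stretches of the longest coding transcript of DAXX 13.7% also occur in a gene model that overlaps it, AL662820.1.

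ATRX had 7.32, 6.88 and 8.62 FPKM in control total RNA and 6.92, 6.42 and 6.91 in RBMX total RNA. In polysomal RNA ATRX had 8.74, 8.19 and 8.20 against 7.84, 8.94 and 7.94. Without further scaling the libraries of both vectors were intermixed, but in total RNA this depended on the scaling. ATRX gave a log2 fold change of -0.15 for total RNA (95% interval -0.37 to 0.081, adjusted p = 0.435 by limma) and -0.023 in polysomal RNA (95% interval -0.22 to 0.17, adjusted p = 0.913 by limma). The upper bounds of the intervals for DAXX and ATRX, 0.18 at most, lay below the fold changes of the other 7 genes. The intervals of IFI16, with lower bounds of -0.044 in total and -0.018 in polysomal RNA, overlapped those of DAXX and ATRX. No test of the difference between genes was made.

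Replicate 3 was the lowest of its group in all 4 groups for each of these 7 genes, and in none of them for DAXX or ATRX. Over all genes tested, replicate 3 was lowest for 41.2% in control total, 45% in control polysomal, 32.3% in RBMX total and 28.4% in RBMX polysomal RNA. RBMX itself had 1460 FPKM in total RNA of RBMX replicate 3, where RBMX replicates 1 and 2 had 1731 and 2073, and the part of this level in the result was not tested. Replicate 3 of both vectors was also left out, a choice made after its values were seen, which leaves 2 libraries against 2. In total RNA 7 of the 9 genes then rose past the threshold, where 1.76% of all genes tested did so. Their log2 fold changes were 2.03 for SP140L (adjusted p = 0.00213 by limma), 1.58 for SAMD9 (0.0316), 1.57 for SAMD9L (0.00233), 1.36 for SP100 (0.00974), 1.32 for PML (0.00651), 1.32 for SP110 (0.0417) and 1.20 for IFI16 (0.0257). In polysomal RNA 6 of the 9 rose, where 2.1% of all genes did so, and PML missed the threshold with a limma adjusted p of 0.0547. Without SAMD9L these counts were 6 of 8 and 5 of 8. DAXX and ATRX did not pass in either fraction. With RBMX replicate 3 alone left out, SP100, SP140L and SAMD9L passed in both fractions, where 1.08% of all genes tested were called higher in total RNA and 0.804% in polysomal RNA.

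**Figure D2:**
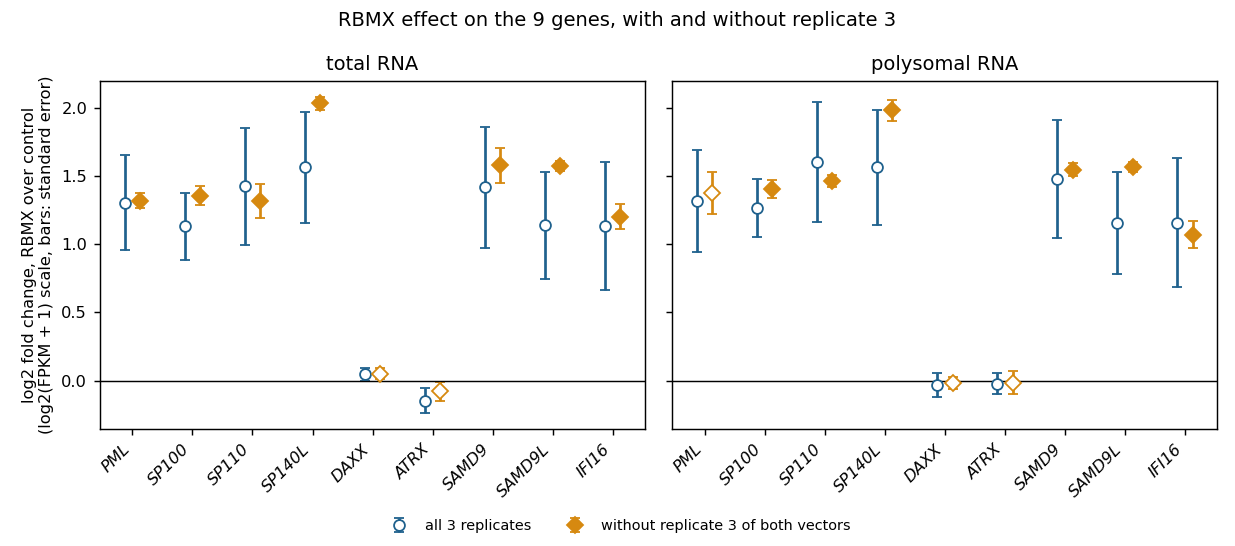
Log2 fold change of RBMX against control with its standard error as bars for the 9 genes, in total and in polysomal RNA, with all 3 replicates (circles) and without replicate 3 of both vectors (diamonds). Filled symbols passed an adjusted p of 0.05 and open ones did not, so that every circle is open, and the diamonds of 7 genes are filled in total RNA and of 6 in polysomal RNA.

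The comparison of polysomal with total RNA asks whether the relative level of each messenger was alike in the 2 fractions. FPKM is relative within a library, so a ratio near 1 does not give the part of a messenger that was on polysomes. In same-numbered libraries the polysomal FPKM was 0.812 to 1.39 times the total FPKM, over the 54 values of 9 genes in 6 pairs of libraries. In control cells 0 of the 9 genes differed between the fractions (limma, Benjamini-Hochberg; background 0.0818%), 0 had an unadjusted p under 0.05 (background 8.04%) and 0 had groups that did not overlap (background 14.9%). The log2 fold changes of polysomal against total RNA ran from -0.12 for SP100 to 0.13 for ATRX. The effect of RBMX was also compared between fractions, taken as the polysomal value less the total value over all 12 libraries. Again 0 of the 9 genes passed (limma, Benjamini-Hochberg; background 0.0204%), and 0 had an unadjusted p under 0.05 (background 0.6%). The differences ran from -0.079 for DAXX to 0.18 for SP110. The width of their intervals depended on the pairing of the libraries. For SP110 the 95% interval was -1.29 to 1.64 without a block and -0.022 to 0.38 with a block for the culture. With that block the intervals of all 9 genes lay between -0.34 and 0.41, and 0 of the 9 had an unadjusted p under 0.05 (2.15% of all genes did) or passed the adjusted threshold by limma (0.0341% did). If same-numbered libraries come from one gradient, the 2 fractions are not independent repeats of one result.

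The protein partners of the bodies were described as a list of 39 genes for SUMO, its enzymes, HIPK kinases, acetyltransferases and other body components, all of which were tested. In total RNA 0 passed the threshold, 5 lay above control without overlap and 7 below, where over all genes 11.9% lay above and 15.4% below, and the median log2 fold change was -0.023. In polysomal RNA 0 passed, 3 lay above without overlap and 4 below (background 10% and 12.5%), with a median of 0.018. The list as a whole thus lay close to all genes, with one gene far from the rest. ISG20, an interferon-induced exonuclease of the bodies, had 4.23, 4.35 and 4.31 FPKM in control total RNA and 54.4, 58.3 and 9.21 in RBMX total RNA. On the log2 scale the fold change of ISG20 was 2.61 in total RNA (adjusted p = 0.183 by limma) and 2.52 in polysomal RNA (adjusted p = 0.4 by limma), and without replicate 3 of both vectors it was the 1 gene of the list to pass in each fraction.

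The other partners with the largest differences between groups that did not overlap were within 0.43 of 0 on the log2 scale. TOP3A, a topoisomerase, lay higher by 0.29 in total RNA and 0.35 in polysomal RNA (adjusted p = 0.17 and 0.4 by limma). In total RNA the kinase gene HIPK2 was at -0.35 and the heterochromatin protein gene CBX5 at -0.29 (adjusted p = 0.238 and 0.199 by limma). In polysomal RNA SUMO2, a modifier that PML binds, was at -0.43 (adjusted p = 0.422 by limma). Of 11 genes for the deposition of H3.3, the pathway of DAXX and ATRX, 0 passed in either fraction. In total RNA 1 of the 11 lay above control without overlap (background 11.9%), and in polysomal RNA 2 of the 11 did (background 10%). SETDB1, a histone methyltransferase of heterochromatin, lay above control without overlap in both fractions, by 0.33 in total RNA and 0.29 in polysomal RNA (adjusted p = 0.17 and 0.4 by limma). HIRA, the chaperone that deposits H3.3 outside heterochromatin, did so in polysomal RNA, by 0.21 (adjusted p = 0.414 by limma). The paralogs SP140, AIRE, MNDA, PYHIN1 and AIM2 did not reach the filter, and the highest group mean among them was 0.296 FPKM, for AIM2 in RBMX total RNA.

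**Figure D3:**
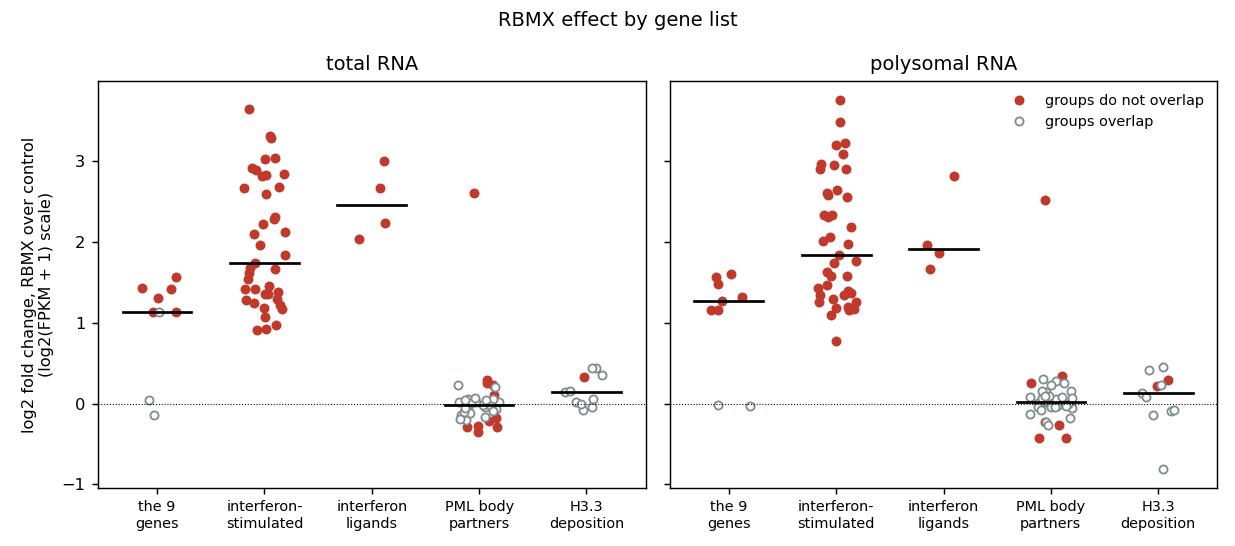
Log2 fold change of RBMX against control for each tested gene of 5 lists (points, filled where the groups do not overlap), with the list median as a line, in total and in polysomal RNA. The 41 interferon-stimulated genes and 7 of the 9 genes described here lie at 0.78 or higher in both fractions, and the 39 partners of PML bodies lie around 0 except for ISG20.

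The list of 41 interferon-stimulated genes gave the closest comparison. All 41 lay above control without overlap in each fraction, where 11.9% of all genes did so in total RNA and 10% in polysomal RNA. Their log2 fold changes ran from 0.91 to 3.64 with a median of 1.75 in total RNA and from 0.78 to 3.76 with a median of 1.84 in polysomal RNA. None of them passed (0 of 41 in each fraction, limma, Benjamini-Hochberg). Without replicate 3 of both vectors, the choice made after its values were seen, 39 did in total RNA (1.76% of all genes). In polysomal RNA 41 then did (2.1% of all genes). OAS2, a sensor of double-stranded RNA, had the largest value, a log2 fold change of 3.64 for total RNA (adjusted p = 0.176 by limma). It was followed by RSAD2 with 3.32, XAF1 with 3.29 and IFIT2 with 3.04. OAS2 had 5.89, 7.26 and 2.39 FPKM in control total RNA and 128, 143 and 19.2 in RBMX total RNA, so that replicate 3 was the lowest of each group as in the 7 genes above. An exact response element core was found in the promoters of 23 of the 32 list genes with a promoter, against 1 of 6 here. Of all 27305 genes with a promoter 4.38% had one.

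The interferon genes themselves were measured too, of which 4 of 7 reached the filter. IFNB1, the beta interferon gene, had 1.22, 0.867 and 0.813 FPKM in control total RNA and 19.2, 22.1 and 3.19 in RBMX total RNA. IFNL1, a lambda interferon gene, had 1.49, 1.06 and 1.13 against 30.2, 32.5 and 4.33. IFNB1, IFNL1, IFNL2 and IFNL3 all lay above control without overlap in both fractions (background 11.9% in total and 10% in polysomal RNA). Their log2 fold changes were 2.04 to 3.00 in total RNA and 1.67 to 2.82 in polysomal RNA, and 0 of 4 passed (limma, Benjamini-Hochberg). Without replicate 3 of both vectors all 4 passed in each fraction (background 1.76% in total and 2.1% in polysomal RNA). IFNL2 and IFNL3, with control means under 0.5 FPKM, reached the filter only through the RBMX-overexpressing cells. Their place in these counts is thus a description. Of the other genes, IFNB1 and IFNL1 both lay above control without overlap and, without replicate 3, both passed in each fraction. Replicate 3, left out after its values were seen, held the lowest RBMX value of both genes. These passes are thus descriptions too. Among the leukocyte markers CD68 was likewise lowest of the RBMX libraries in replicate 3, with 5.20, 5.07 and 5.12 FPKM in control total RNA and 25.6, 23.4 and 7.58 in RBMX total RNA, and the summed level of the 10 markers was 6.80 to 7.39 in control and 9.77 to 28.8 in RBMX total RNA. The myeloid genes ITGAM, SPI1 and LAPTM5 were below the filter and untested, and in total RNA each lay above control without overlap. ITGAM had 0.0806 to 0.153 FPKM in control and 0.273 to 0.549 in RBMX libraries. SPI1 had 0.0825 to 0.216 against 0.296 to 0.446, and LAPTM5 0.0153 to 0.0300 against 0.0803 to 0.132. TYROBP stayed below 0.1 FPKM in every library, and the part of other cell types in the result was not tested. In bulk RNA a larger share of responding cells and more RNA per cell cannot be told apart.

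Across the 12 libraries the 7 genes varied together. Pearson's r of log2(FPKM + 1) between any pair of them was 0.865 to 0.992, and between one of them and DAXX or ATRX it was -0.467 to -0.191. These are descriptions over libraries that share vectors, cultures and replicate 3, given without a p. The genes most like each of the 9 were then found by the same r among the genes tested without small RNA genes. Of these 14182 genes 41 are on the list of interferon-stimulated genes. PML was closest to OAS3 (r = 0.994) and TAP2 (0.992), SP100 to IFI44L (0.995) and PNPT1 (0.994), and SP110 to SAMHD1 (0.996) and PARP9 (0.993). SP140L was closest to APOL6 (0.998) and XAF1 (0.997), and SAMD9L to APOL3 (0.999) and APOL1 (0.998). SAMD9 was closest to HERC6 (0.998) and RSAD2 (0.995), and IFI16 to NUB1 (0.994) and HERC5 (0.992). Of the 20 genes nearest to each member, the list of 41 supplied 15 for SP100, 15 for SAMD9, 10 for PML, 8 for SP110, 5 for IFI16, and 3 each for SP140L and SAMD9L. It supplied 0 for DAXX, which was closest to ORMDL3 (0.942) and TPD52L2 (0.931). For ATRX, which was closest to ZNF292 (0.956) and RYR2 (0.930), it supplied 0 too. The list is a small share of the genes searched, so a count of 0 is not in itself a contrast. The counts also depend on which genes the list holds, and APOL6, APOL3 and APOL1 are not on it.

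**Figure D4:**
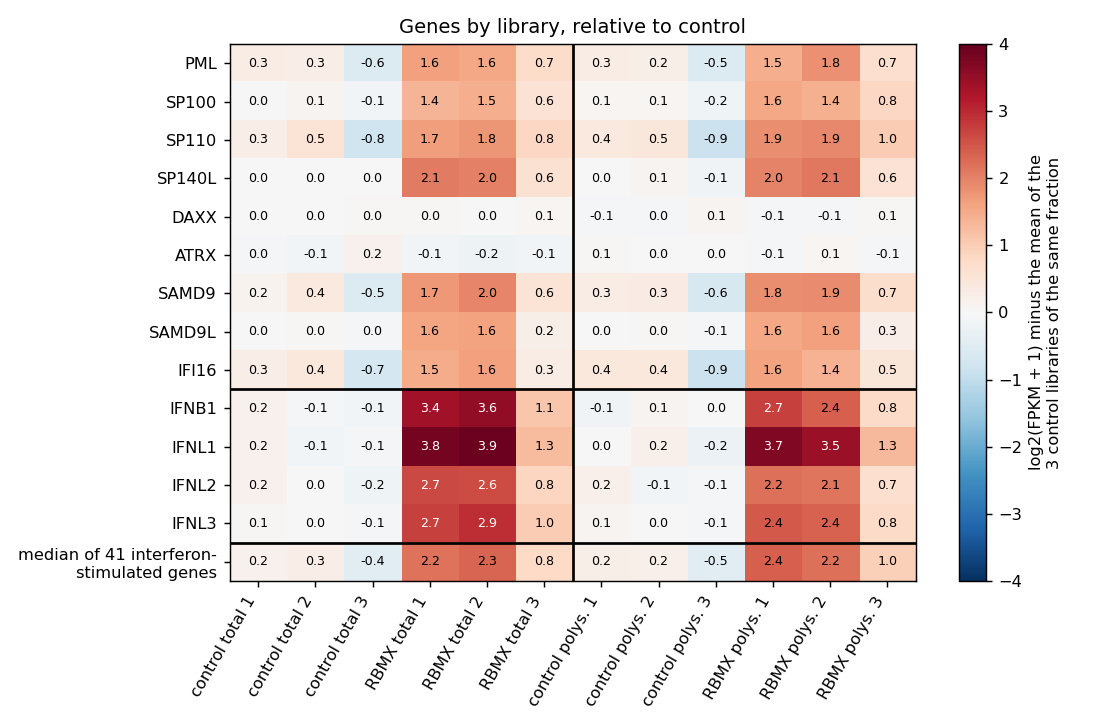
Difference of log2(FPKM + 1) from the mean of the 3 control libraries of the same fraction, for the 9 genes, 4 interferon genes and the median of 41 interferon-stimulated genes in rows and the 12 libraries in columns. PML, SP100, SP110, SP140L, SAMD9, SAMD9L and IFI16 are high in RBMX replicates 1 and 2 of both fractions, they are lower in RBMX replicate 3, which for IFI16 in total RNA lies inside the control range, and DAXX and ATRX show little variation.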

How the data were processed

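The authors deposited FPKM values for 25268 gene symbols in 12 libraries made with the TruSeq RNA Sample Prep kit. The submitters' processing notes name CASAVA 1.8, TopHat2 2.0.13, Cufflinks 2.2.1, Cuffnorm and the build hg19, whereas the methods describe another alignment, to hg38, with counts compared by the authors in DESeq2. The annotation behind the FPKM values and their scaling between libraries are not given in the sources used here, and 0 columns were left unmatched. The sum over genes ran from 817528 to 1903317 FPKM per library. Depth is unknown, since no more than 23.5% of the lowest values of a library shared one step.

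Genes with a mean of at least 0.5 FPKM over the libraries (14676) were compared on the log2(FPKM + 1) scale in R 4.3.3 with limma 3.58.1, using eBayes with an intensity trend and Benjamini-Hochberg adjustment. The 6 libraries of a fraction entered each comparison of RBMX with control, all 12 the difference between fractions, and 6 control libraries the comparison of fractions. Single genes were also compared by an exact two-sided permutation test. Python 3.11.15, pandas 2.3.3 and matplotlib 3.10.9 read promoters and drew plots. In simulated data with 200 of 14676 genes changed, 83% of those changed by 1 on the log2 scale and 97% of those changed by 2 were recovered in total RNA, and 71% and 92% in polysomal RNA.

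The genes named are the 9 genes, RBMX and, from each list, genes past the threshold and up to 4 per fraction with the largest change among those whose groups do not overlap, along with the markers and the 2 genes most like each of the 9. Some results covered by this rule are not reported here. The 9 genes and the lists were chosen with earlier results of these data known. The libraries were prepared in biological triplicate, and p-values measure the spread between these samples. Alternatives were a pseudocount of 0.1, a minimum of 0.1 or 1 FPKM or none, median-ratio and quantile scaling, small RNA genes left out, eBayes without trend, a single fit of all libraries, a block for the replicate, and each replicate left out. Same-numbered total and polysomal libraries were taken as pairs, since the protocol pools total RNA from the gradient that gives the polysomal RNA, although it also names a pair of dishes for the extractions. The correlation of their deviations over genes ran from 0.0199 to 0.836. Nothing in the labels ties same-numbered control and RBMX libraries to each other.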

Additional observations from a re-analysis of the deposited data

How the results depend on the processing

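The counts of the 9 genes past the threshold rested on replicate 3. With each replicate left out in turn it was between 0 and 3 in either fraction, and without replicate 3 of both vectors, a choice made after seeing the data, it was 7 in total and 6 in polysomal RNA (SAMD9L included). Deviations of same-numbered control and RBMX libraries had r from -0.172 to 0.339 over genes, so the numbers were not used as pairs, although replicate 3 was lowest with both vectors for 7 of the 9 genes. With a replicate block the count was 1 in total RNA (PML, log2 fold change 1.31, adjusted p = 0.0454 by limma) and 0 in polysomal RNA, and a block for the culture left 0 in both comparisons that involve both fractions. No other alternative changed these counts. The overlap of groups in total RNA did depend on scaling. DAXX did not overlap with median-ratio rescaling (log2 fold change 0.0508, 26.9% of all genes without overlap). ATRX lay below control without overlap with quantile normalization (-0.16, 27.9%) and with small RNA genes left out (-0.184, 29.4%). With quantile normalization the groups of SAMD9L overlapped. The log2 fold changes of PML, SP100, SP110, SP140L, SAMD9, SAMD9L and IFI16 stayed above 0 in every alternative. They ran from 0.729 (IFI16 in polysomal RNA) to 2.56 (SAMD9L in polysomal RNA). SAMD9L was not tested with a minimum of 1 FPKM.

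Values near 0 changed sign. For the RBMX effect DAXX was at -0.0385 in total RNA with quantile normalization. With replicates left out in turn DAXX ran from -0.075 to 0.027 and ATRX from -0.0764 to 0.00855 in polysomal RNA. The difference between fractions ran from -0.059 to 0.067 for SP140L, -0.0572 to 0.167 for IFI16, -0.121 to 0.115 for PML and -0.000447 to 0.0358 for SAMD9L in the same way. It was -0.0261 for SP140L with a pseudocount of 0.1, and without replicate 3 of both vectors it was -0.0532 for SP140L, -0.0325 for SAMD9, -0.00733 for SAMD9L and -0.133 for IFI16. For polysomal against total RNA in control cells SAMD9L was at 0.0289 with quantile normalization. With small RNA genes left out, which moved the median of all genes to 0.0828, SP110 was at 0.0273, SAMD9 at 0.0122, SAMD9L at 0.00936 and IFI16 at 0.0554. With replicates left out the values ran from -0.0289 to 0.097 for SP140L, -0.0191 to 0.00395 for SAMD9L and -0.113 to 0.0383 for IFI16. The number of the 9 genes whose control fractions did not overlap was 1 with median-ratio rescaling (DAXX, 15.2% of all genes), 2 with small RNA genes left out (DAXX and ATRX, 20.8% of all genes) and 0 to 5 with replicates left out (23.2% to 59.1% of all genes). The cause of these shifts was not tested.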
